A study of Mus musculus with 31 samples.

Results

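The 35 genes described here encode clotting factors, their inhibitors and complement proteins that the liver secretes into plasma. They were chosen by name, 21 for coagulation and 14 for complement, and all 35 were found among the 43629 genes of the deposited table and passed the filter on low counts that left 17057 genes for testing. RNA was sequenced from the livers of 31 C57Bl/6J mouse pups at postnatal day 14, with injections every other day from postnatal day 2. All pups, controls included, were Dio1KO/Dio2KO, that is, without the type 1 and type 2 deiodinases, which convert thyroxine (T4) into the receptor ligand triiodothyronine (T3). Pups that also lacked Pax8, without which the thyroid does not develop its follicles (Dio1KO/Dio2KO/Pax8KO), received T4 (8 livers), T3 (6 livers), T3 and T4 together (7 livers, called T3+T4) or vehicle (5 livers, called vehicle). Pups with 1 intact Pax8 copy (Dio1KO/Dio2KO/Pax8Het) received vehicle and are called control (5 livers). The comparisons ask how the absence of a thyroid, and each hormone given in its place, changed the RNA of these genes when neither deiodinase can convert T4. Hormone doses are not given in the labels, so T4 and T3 are compared as injected. Each library came from 1 animal, numbered in the labels, and animals are the replicates.

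Clotting factors circulate as inactive precursors. Thrombin, made from prothrombin (F2) by factor Xa and its cofactor factor V, cuts fibrinogen into fibrin, while antithrombin, protein C and heparin cofactor II restrain it and plasmin dissolves the clot. Complement is a parallel cascade in which mannose-binding lectins or antibodies start cleavage of C4 and C3, and C5 to C9 assemble a pore in the target membrane. Hepatocytes are the main source of most of these proteins. Thyroid hormone is known to change the level of several clotting factors in plasma.

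Library totals ran from 4383769 to 7158919 counts, and averaged 5343109 ± 528829 in T4 (SD, n = 8), 6070280 ± 481634 in T3 (n = 6), 6353684 ± 534439 in T3+T4 (n = 7), 5297107 ± 301534 in vehicle (n = 5) and 5413170 ± 395846 in control libraries (n = 5). The 9 hepatocyte markers were detected throughout, with median summed levels of 6160, 5960, 6000, 6920 and 6490 CPM (counts scaled to a common library size) in T4, T3, T3+T4, vehicle and control livers. Of these 9 markers, 5 were called lower in T3+T4 and 3 in T3 than in vehicle livers (1, Apob, and none with library total as a covariate, explained below). A mean of 5 CPM or more over pancreatic acinar or skeletal muscle genes, which liver lacks, was seen in 3 of 8 T4, 2 of 6 T3, 4 of 7 T3+T4, 2 of 5 vehicle and 1 of 5 control libraries. Animals numbered 54 to 85 made up 5 of 8 T4, 6 of 6 T3, 7 of 7 T3+T4, 2 of 5 vehicle and 1 of 5 control libraries. Y-linked genes marked 6 of 8 T4, 1 of 6 T3, 5 of 7 T3+T4, 3 of 5 vehicle and 1 of 5 control pups as male. The column names of the deposited table give a sex for some pups, and these labels conflict with the RNA in each hormone group. They name T4 pups 54, 69 and 71 female, T3 pups 62 and 68 male, and T3+T4 pups 78, 79 and 85 female. The reason was not tested, and sex as a covariate was taken from the RNA. In whole liver, fewer hepatocytes and less RNA per hepatocyte cannot be told apart. Dio1 counts were present in every library, at means of 184.9, 834.3, 1187.9, 65 and 891.6 in the same order of groups, and no label gives the exons removed by the Dio1 allele. Pax8 had 2 to 28 counts over all libraries, at means of 15, 11.3, 11.1, 8.8 and 5.8 in the same order of groups. Counts this low do not check the Pax8 genotype.

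Promoters are shown for the 3 members on which the results below turn, namely Mbl2, F11 and F5. The sequences are RefSeq (GRCm38.p6) and run from 250 bases before to 50 bases after the start of each gene, written in the direction of transcription. Capitals mark every match, on either strand, to the thyroid hormone receptor half-site AGGTCA, the HNF1 half-site GTTAAT or the C/EBP motif TTGCNNAA, and no 2 matches overlap.
Mbl2, chr19:30232678-30232977, plus strand: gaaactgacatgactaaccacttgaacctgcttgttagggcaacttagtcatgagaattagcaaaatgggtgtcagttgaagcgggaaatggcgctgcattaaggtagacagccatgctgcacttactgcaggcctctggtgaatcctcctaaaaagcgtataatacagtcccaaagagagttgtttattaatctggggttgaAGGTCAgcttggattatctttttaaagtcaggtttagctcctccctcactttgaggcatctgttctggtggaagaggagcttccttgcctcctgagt
F11, chr8:45261982-45262281, minus strand: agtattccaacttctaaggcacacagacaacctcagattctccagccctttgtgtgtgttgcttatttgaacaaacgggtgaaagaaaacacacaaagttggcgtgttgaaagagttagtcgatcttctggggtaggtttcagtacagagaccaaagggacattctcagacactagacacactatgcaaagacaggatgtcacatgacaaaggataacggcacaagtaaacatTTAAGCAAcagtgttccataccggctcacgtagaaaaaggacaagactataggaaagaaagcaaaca
F5, chr1:164151585-164151884, plus strand: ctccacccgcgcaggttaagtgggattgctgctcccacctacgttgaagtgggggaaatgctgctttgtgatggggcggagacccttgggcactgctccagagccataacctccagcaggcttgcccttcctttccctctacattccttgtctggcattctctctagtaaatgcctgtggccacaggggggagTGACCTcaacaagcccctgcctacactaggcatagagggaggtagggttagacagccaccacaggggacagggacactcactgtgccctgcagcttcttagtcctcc
The Mbl2 and F5 windows each hold 1 AGGTCA match, on the plus and the minus strand of the gene, and the F11 window holds 1 TTGCNNAA match. The table of promoters covered 27 of the 35 members. A member was counted if any of its promoters matched, while the percentages below are shares of single promoters, so they are not on the same scale. AGGTCA was found in 13 of the 27 (F2, F5, F7, F9, F10, Fgg, Serpind1, Serpinf2, Apoh, C3, C6, C8b and Mbl2), beside 16.3% of all 32851 promoters of that length. GTTAAT was found in 7 (F2, Fga, Fgb, F13b, Hc, C8a and C8b), beside 7.1% of all promoters, and TTGCNNAA in 8 (F9, F11, Fga, Fgb, Serpinc1, Klkb1, C3 and C9), beside 10.8%. A match of these letters is a description of the window and not a bound site.

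Most members had counts in the range where the deposited table levels off, called the ceiling here. In that range, a gene with many counts per base of transcript gained few counts when its library was sequenced more deeply. The number per base at which counts would stop was not determined, and the corrections below assume 2. The mean count per base of the longest transcript was above 0.5 in 24 of the 35 members, against 5.55% of the genes tested, and above 1 in 9 members, against 0.903%. The median over members was 0.641, against 0.0687 over the genes tested. All 9 members above 1 count per base were coagulation genes: Fga (1.54), Kng1 (1.29), Serpinf2 (1.23), Serpind1 (1.22), Fgg (1.21), F2 (1.14), Apoh (1.09), Plg and Serping1 (1.01 each). Klkb1 and Cfb were the lowest, at 0.0298 and 0.0514, and the Klkb1 identifier has no coding transcript in the annotation used. Levels between genes are compared here only on this scale of counts per transcript base.

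The effect on the values was read from libraries of 1 group, where treatment is the same. Depth was taken as the summed counts of 9631 genes far below the ceiling, and a gene counted in proportion to depth has a slope of 1 between log2 count and log2 depth within groups. The median slope of the members was 0.39, and 34 of the 35 had a slope under 1. C6, at 0.0933 counts per base, was the exception with 1.29. Members far from the ceiling were among the 34, such as Klkb1 (0.54) and Cfb (0.75). Genes under 0.05 counts per base had a lower quartile of 0.91, so a slope under 1 alone does not mark the ceiling. Apoh, a plasma protein that binds phospholipids, had a slope of 0.17, and its count lay between 1234 and 1357 in all 31 libraries while their totals ran from 4383769 to 7158919. C3, the central complement protein, had a slope of 0.23 and counts of 4522 to 5300. F5 had the steepest slope of the members above 0.5 counts per base, 0.89 at 0.601. Genes between 0.6 and 0.8 had a median slope of 0.44 and a middle 50% of 0.3 to 0.6. Other members also lay above the middle 50% for their level, among them Hc (0.67), Kng1 (0.61), Fgg, Fgb and F12. Still others, such as C8a and Mbl2 (0.24 each), lay below it. Genes under 0.05 counts per base had a median slope of 1.1 and those over 1.2 had 0.21.

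**Figure D1:**
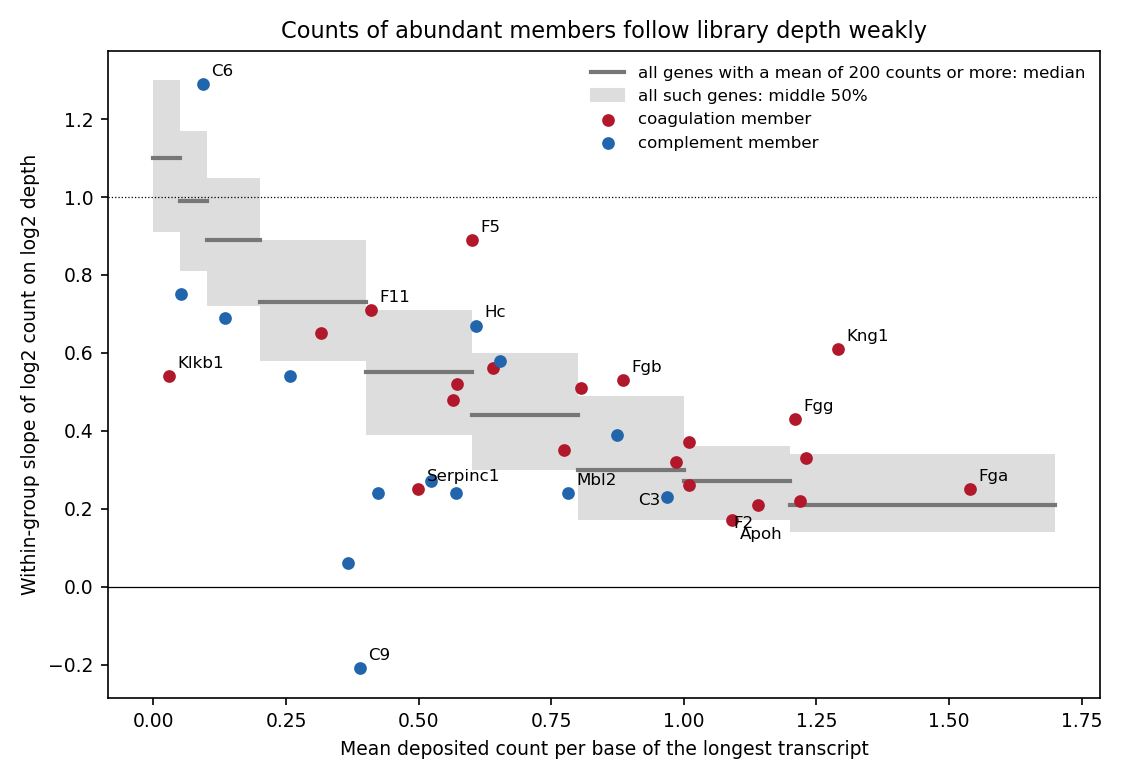
Mean deposited count per base of the longest transcript (x axis) against the slope of log2 count on log2 depth within groups (y axis), for the 35 members (red coagulation, blue complement) and, as grey bars with shaded middle 50%, for all genes with a mean of 200 counts or more. The dotted line marks a slope of 1, which counts in proportion to depth would have; the median slope falls to 0.21 above 1.2 counts per base, and F5 (0.89 at 0.601) lies above genes of its level.

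By arithmetic, a gene whose count does not grow with depth has a lower CPM in a larger library. Within the T3+T4 group, animal 78 had the largest library of the study (7158919 counts) and the lowest CPM of its group in 30 of the 35 members, while animal 85, with the smallest T3+T4 library (5531724), had the highest in 17. Within the T3 group, animal 62 had the smallest library (5237993) and the highest CPM in 25 members. Within the control group, animal 47 had the largest library (5967157) and the lowest CPM in 29 members. Within the T4 group, animal 71 (largest, 6116826) was lowest in 12 members and animal 70 (smallest, 4383769) highest in 14. The order was not strict. T3 animal 60, the largest T3 library (6580814), was lowest in 8 members, against 14 for animal 61, and in the vehicle group animal 67 (5539883) was highest in 15 members while animal 37, the largest (5625282), was lowest in 15. The summed counts of the 35 members were 63031 ± 4032 in T4, 66477 ± 4436 in T3, 69253 ± 3322 in T3+T4, 63793 ± 4192 in vehicle and 64072 ± 3570 in control libraries (SD). Their share of all counts was 1.18%, 1.1%, 1.09%, 1.2% and 1.19% in the same groups. The calls below are given as fitted and again with log2 library total as a covariate in the same model.

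Without a thyroid, 2 of the 35 members were lower in vehicle than in control livers and none was higher, 5.71% of the members beside 9.6% of all genes tested (4.92% higher and 4.68% lower). They were Mbl2, a mannose-binding lectin that starts the lectin pathway of complement, and F11, the factor XI precursor that activates factor IX. The median log2 fold change was 0.03 over the members and 0.01 over all genes. Scaled by library total, or by genes far from the ceiling, the split was 1 higher (F5) and 1 lower (Mbl2). F11 and Mbl2 were also the 2 members called with library total as a covariate.

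Mbl2 (ENSMUSG00000024863, chromosome 19, 30232942 to 30239687, plus strand, GENCODE M21 on mm10) had 147, 129, 132, 104 and 115 CPM in vehicle pups 37, 38, 55, 67 and 2019, against 193, 151, 181, 168 and 194 CPM in control pups 42, 47, 49, 50 and 59. Every vehicle liver was below every control liver, and 9.3% of all genes tested separated these groups in either direction. The deposited counts, 811, 643, 624, 568 and 605 in vehicle livers and 1057, 897, 921, 832 and 1027 in control livers, did not overlap either. The means were 125 ± 16.5 CPM in vehicle and 177 ± 18.3 CPM in control livers (SD, n = 5 each). The log2 fold change was -0.50 ± 0.13 (SE, 95% interval -0.75 to -0.25, edgeR adjusted p = 0.0126). With library total as a covariate it was -0.52 (edgeR adjusted p = 0.00637). The call was lost in 1 of 15 other settings, animals 54 to 85 alone, which hold 2 vehicle livers and 1 control liver and gave -0.75.

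With hormone, Mbl2 had 109 to 177 CPM with a median of 137 in T4 livers, 133 to 183 CPM with a median of 141 in T3 livers and 126 to 180 CPM with a median of 168 in T3+T4 livers. Ordered by mean, Mbl2 was highest in control (177 CPM), then T3+T4 (156), T3 (151), T4 (137) and vehicle livers (125), and the ranges of neighbours in that order overlapped in each case. The log2 fold change was 0.13 ± 0.12 in T4, 0.27 ± 0.12 in T3 and 0.32 ± 0.12 in T3+T4 livers against vehicle, with edgeR adjusted p of 0.701, 0.183 and 0.0645. With library total as a covariate the T3+T4 difference was 0.49 and passed the test (edgeR adjusted p = 0.0213), the T3 difference was 0.40 (0.0865). DESeq2 called Mbl2 higher in T3+T4 livers without that covariate as well (0.33). These comparisons share the 5 vehicle livers with the one before.

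F11 (ENSMUSG00000031645, chromosome 8, 45241174 to 45262031, minus strand) had 147, 120, 127, 150 and 165 CPM in vehicle livers, against 182, 164, 211, 197 and 185 CPM in control livers. The groups met at 165 CPM in vehicle pup 2019 and 164 CPM in control pup 47. The means were 142 ± 18.2 CPM in vehicle and 188 ± 17.5 CPM in control livers (SD, n = 5 each), which gave a log2 difference of -0.40 ± 0.13 (edgeR adjusted p = 0.0499). This lies at the threshold, and the call was lost in 9 of 15 other settings and without 21 of the 31 libraries. Without T3 pup 61, 4 members were called, 2 of them higher. F11 had 128 to 201 CPM with a median of 154 in T4, 105 to 195 CPM with a median of 155 in T3 and 142 to 194 CPM with a median of 166 in T3+T4 livers, which overlapped vehicle in each case and passed no test against it.

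F5, the precursor of the cofactor that factor Xa needs to make thrombin, came next. F5 (ENSMUSG00000026579, chromosome 1, 164151838 to 164220277, plus strand) had 904, 953, 802, 989 and 969 CPM in vehicle livers, against 764, 856, 858, 741 and 741 CPM in control livers. Its log2 fold change was 0.22 ± 0.07 (edgeR adjusted p = 0.0533), just outside the threshold, with vehicle pup 55 inside the control range, and DESeq2 called it higher. Of the other lectin pathway members, Mbl1 had 110, 103, 118, 102 and 110 CPM in vehicle and 143, 112, 136, 135 and 132 CPM in control livers (-0.27 ± 0.12, edgeR adjusted p = 0.145). The remaining members had log2 fold changes of -0.22 (C8b) to 0.23 (Pros1). Among them, F13b was lower and Hc higher in every vehicle than in every control liver, and neither was called.

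**Figure D2:**
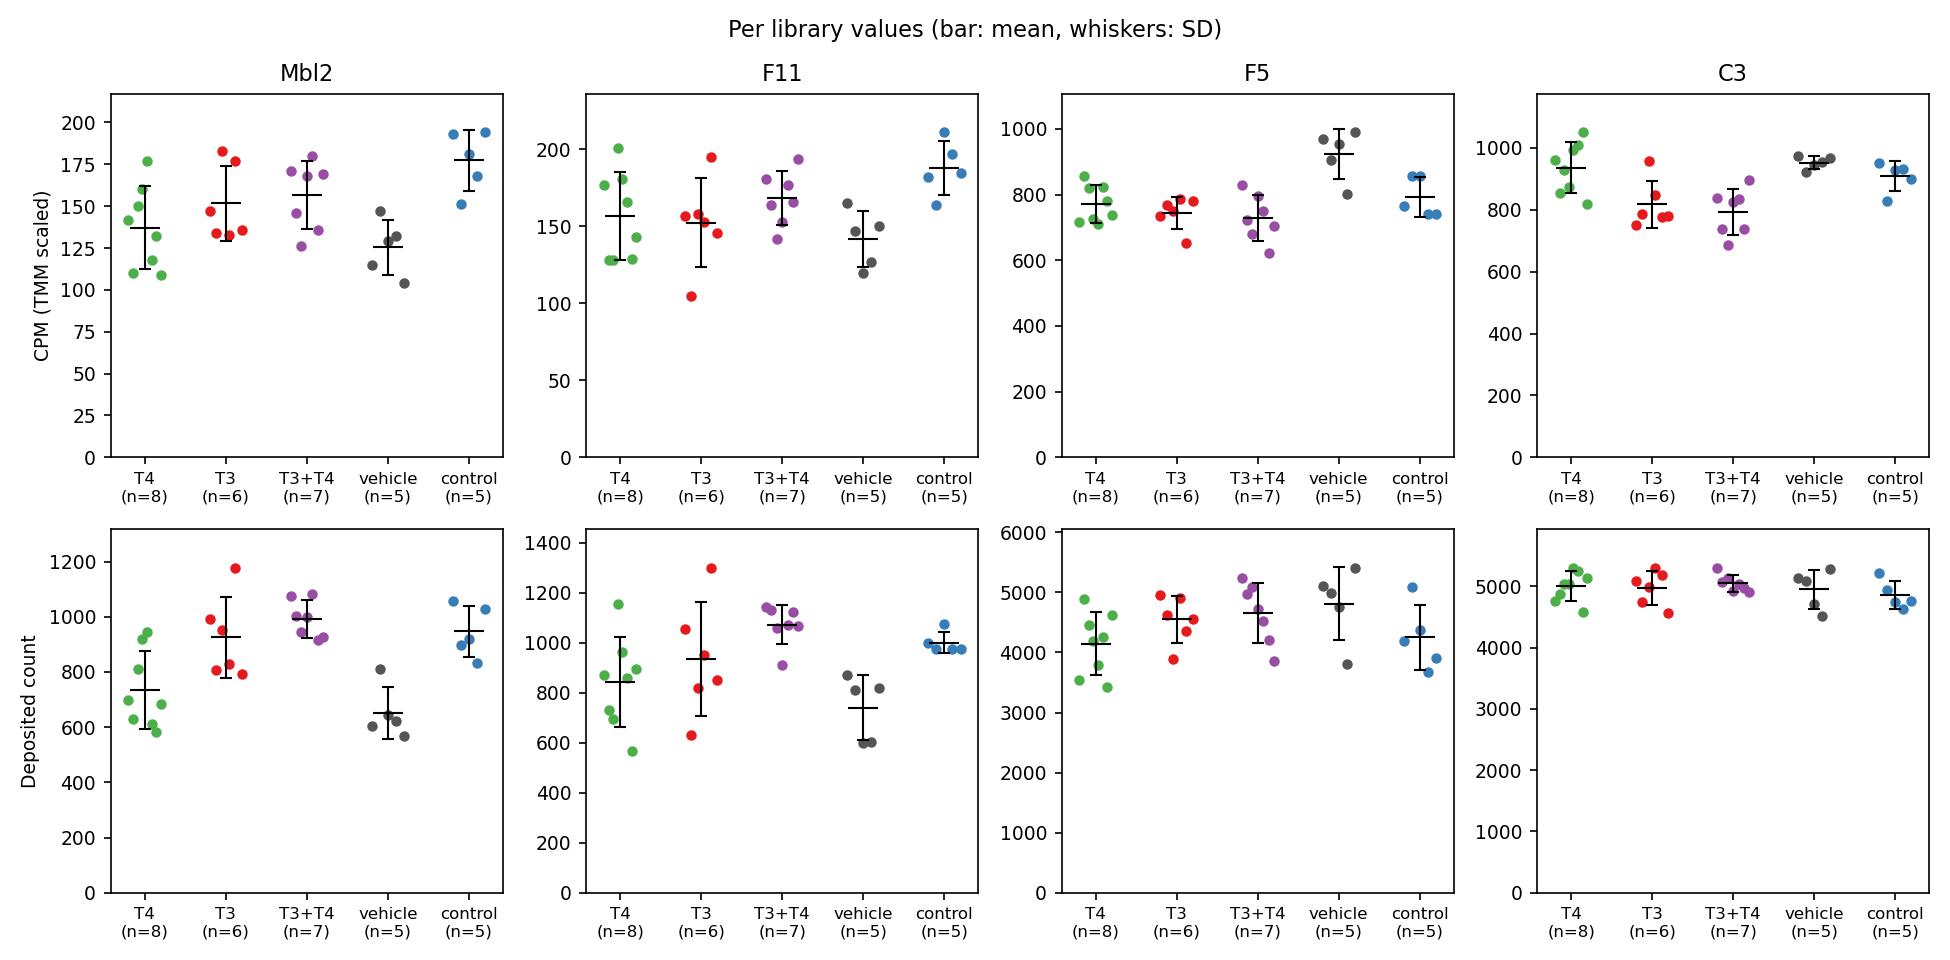
CPM after TMM scaling (upper panels) and deposited counts (lower panels) of Mbl2, F11, F5 and C3 in every library, by group, with the mean (bar) and SD (whiskers). Mbl2 is lower in all 5 vehicle than in all 5 control livers on both scales, and C3 counts lie between 4522 and 5300 in every group while its CPM is lower in all 7 T3+T4 than in all 5 vehicle livers.

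After T4, no member was called against vehicle, beside 0.41% of all genes tested (0.211% higher and 0.199% lower), with an unadjusted p under 0.05 in 5 members and 1 call (F5, lower) by DESeq2. The members' log2 fold changes ran from -0.26 to 0.14, with a median of -0.04 over members and 0 over all genes. F5 had 709 to 856 CPM with a median of 759 in T4 livers, against 904, 953, 802, 989 and 969 CPM in vehicle livers. All but vehicle pup 55 (802 CPM) lay above the highest T4 liver (856 CPM). The F5 log2 fold change was -0.26 ± 0.07 (95% interval -0.39 to -0.13, edgeR adjusted p = 0.0693). It was -0.26 with library total as a covariate. F9, the factor IX precursor whose loss causes haemophilia B, followed with -0.21 ± 0.08 (edgeR adjusted p = 0.257). T4 and vehicle libraries were of similar size, at means of 5343109 and 5297107 counts.

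After T3, 9 of the 35 members were lower than in vehicle livers and none was higher, 25.7% of the members beside 6.76% of all genes called in either direction, 3.52% higher and 3.24% lower. They were F2, F5, Proc, Serpind1 and Apoh of coagulation and Hc, Cfb, Cfi and Masp2 of complement, by 0.21 to 0.31 on the log2 scale. In CPM the groups did not overlap in 4 members, F5, Hc, Cfb and Masp2, beside 3.61% of all genes tested. Of these 9, F5 was called with library total as a covariate. T3 libraries were larger than vehicle libraries, at means of 6070280 and 5297107 counts, so library size moved with treatment. In 7 of the 9 genes the mean deposited count was lower in T3 than in vehicle livers, each time by less than either SD. F2 had 2240.7 ± 79.1 against 2256.8 ± 86.1 counts (SD), and F5 4549.3 ± 391.6 against 4813.2 ± 611. Of 7 acinar markers 6 were lower and of 6 muscle markers 6 were higher in T3 than in vehicle livers (6 and 0 with the covariate), and their part in the result was not tested. Corrected for a ceiling of 2 counts per exonic base, which is too weak for most members by their slopes, the split was 0 higher and 8 lower. DESeq2 without the filter gave 4 higher and 0 lower, but its size factors of 0.948 to 1 leave library size almost unscaled, and its median over the 17057 tested genes was 0.23.

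F5 had 653 to 786 CPM with a median of 758 in T3 livers, against 904, 953, 802, 989 and 969 CPM in vehicle livers, with no overlap. The means were 745 ± 48.8 CPM in T3 (SD, n = 6) and 923 ± 74.5 CPM in vehicle livers (n = 5), a log2 fold change of -0.31 ± 0.07 (edgeR adjusted p = 0.00824), and -0.31 with library total as a covariate (0.0283). In animals 54 to 85 alone, with 2 vehicle livers, the difference was -0.25 and was not called. Without the libraries with acinar or muscle genes it was -0.31, and was not called either.

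The other 4 coagulation genes called after T3 lay at the upper end of the count scale. F2 had 335 to 427 CPM with a median of 364 in T3 livers, against 432, 431, 471, 416 and 425 CPM in vehicle livers (-0.24 ± 0.07, edgeR adjusted p = 0.0265). Proc, the protein C precursor that as an active protease destroys factors V and VIII, had 230 to 294 CPM with a median of 245 in T3 livers, against 282, 288, 303, 288 and 293 CPM in vehicle livers (-0.21 ± 0.06). Serpind1, or heparin cofactor II, had 381 to 502 CPM with a median of 429 in T3 livers, against 490, 502, 540, 479 and 509 CPM in vehicle livers (-0.22 ± 0.07). In each of the 3, T3 pup 62, the smallest T3 library, was the highest of its group and reached into the vehicle range. Apoh had 196 to 248 CPM with a median of 214 in T3 livers, against 243, 263, 266, 248 and 250 CPM in vehicle livers (-0.24 ± 0.07). In the fit with library total these 4 log2 fold changes were -0.09 for F2, -0.08 for Proc, -0.07 for Serpind1 and -0.07 for Apoh, and none was called.

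Among complement genes, Hc, the mouse C5 that starts the membrane pore, had 504 to 575 CPM with a median of 546 in T3 livers, against 634, 611, 610, 715 and 642 CPM in vehicle livers (-0.24 ± 0.05, edgeR adjusted p = 0.00722). Masp2, the protease bound to mannose-binding lectin that cleaves C4 and C2, had 119 to 136 CPM with a median of 127 in T3 livers, against 155, 153, 148, 157 and 150 CPM in vehicle livers (-0.26 ± 0.06, edgeR adjusted p = 0.00907). Neither overlapped between groups. Cfi, the protease that inactivates C3b and C4b, had 260 to 340 CPM with a median of 289 in T3 livers, against 331, 345, 373, 363 and 354 CPM in vehicle livers (-0.26 ± 0.06). Cfb, the protease precursor of the alternative pathway, had 21.2 to 23.1 CPM with a median of 22.1 in T3 livers, against 25.5, 23.7, 24, 30.4 and 27.9 CPM in vehicle livers (-0.25 ± 0.08). Cfb was far from the ceiling at 0.0514 counts per base. Library total as a covariate gave log2 fold changes of -0.20 for Hc, -0.19 for Masp2, -0.15 for Cfi and -0.22 for Cfb, with edgeR adjusted p of 0.0514, 0.0845, 0.0873 and 0.159. None was called.

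The count of 9 was 4 without vehicle pup 37 or T3 pup 60, 65 or 68, 5 without T3 pup 64 and 15 without T3 pup 62. In animals 54 to 85 alone, and without the libraries with acinar or muscle genes, no member was called in this comparison.

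After T3+T4, 16 of the 35 members were lower than in vehicle livers and none was higher, 45.7% of the members beside 15.8% of all genes called in either direction, 7.32% higher and 8.48% lower. They were 12 of 21 coagulation genes (F2, F5, F10, all 3 fibrinogen chains, Proc, Serpinf2, Serping1, Plg, Kng1 and Apoh) and 4 of 14 complement genes (C3, Hc, Cfi and Masp2), by 0.18 to 0.34 on the log2 scale. The groups did not overlap in 13 of the 35 members, all among these 16, beside 8% of all genes tested, called or not. In deposited counts, 13 of the 16 had a mean that was not lower in T3+T4 than in vehicle livers, the 3 others being F5, Fgb and Apoh. C3 had 4906 to 5291 counts in T3+T4 livers and 4522 to 5288 in vehicle livers. With library total as a covariate, F5 was lower, Mbl2 was higher and no other member was called. T3+T4 libraries averaged 6353684 counts and vehicle libraries 5297107. Corrected for a ceiling of 2 counts per exonic base, again too weak for most members, the split was 1 higher (Mbl2) and 13 lower. DESeq2 without the filter gave 11 higher and 0 lower, with a median of 0.29 over the tested genes. Of 9 hepatocyte markers, 5 were lower in the same comparison and 1 with the covariate, and their part in the result was not tested.

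The 3 fibrinogen chains, which join into the clot protein, fell together in CPM. Fga had 547 to 685 CPM with a median of 657 in T3+T4 livers, against 711, 744, 798, 729 and 765 CPM in vehicle livers (-0.25 ± 0.07, edgeR adjusted p = 0.012). Fgb had 480 to 578 CPM with a median of 537 in T3+T4 livers, against 617, 657, 623, 715 and 665 CPM in vehicle livers (-0.30 ± 0.07, edgeR adjusted p = 0.00209). Fgg had 308 to 357 CPM with a median of 335 in T3+T4 livers, against 365, 409, 395, 421 and 405 CPM in vehicle livers (-0.26 ± 0.06, edgeR adjusted p = 0.00332). No T3+T4 liver reached the lowest vehicle liver for any chain, whereas the ranges of counts overlapped, at 3755 to 4163 and 3709 to 4036 for Fga in T3+T4 and vehicle livers. In the covariate fit Fga was at -0.05, Fgb at -0.20 and Fgg at -0.13 (edgeR adjusted p = 0.563, 0.0777 and 0.166).

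Of the thrombin-forming genes, F5 had 623 to 830 CPM with a median of 724 in T3+T4 livers, against 904, 953, 802, 989 and 969 CPM in vehicle livers. T3+T4 pup 72 (830 CPM) was the highest of its group and vehicle pup 55 (802 CPM) the lowest of its own, and the other livers did not overlap. The means were 729 ± 70 CPM in T3+T4 (SD, n = 7) and 923 ± 74.5 CPM in vehicle livers (n = 5), a log2 fold change of -0.34 ± 0.07 (edgeR adjusted p = 0.00104) that was -0.34 with the covariate (0.00936). In animals 54 to 85 alone it was -0.28, and without the libraries with acinar or muscle genes -0.33, and neither was called. F2 had 322 to 409 CPM with a median of 375 in T3+T4 livers, against 432, 431, 471, 416 and 425 CPM in vehicle livers (-0.24 ± 0.06), and F10, the precursor of factor Xa, had 285 to 347 CPM with a median of 319 in T3+T4 livers, against 343, 353, 376, 383 and 350 CPM in vehicle livers (-0.18 ± 0.06). With the covariate F2 was at -0.03 and F10 at -0.02.

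Of the inhibitors, anticoagulants and genes of clot removal, Proc, Serpinf2, Serping1 and Plg were lower, and Serpinc1, Serpind1 (-0.18 ± 0.07) and Pros1 were not called. Proc had 237 to 276 CPM with a median of 258 in T3+T4 livers, against 282, 288, 303, 288 and 293 CPM in vehicle livers (-0.18 ± 0.06). Serpinf2, the inhibitor of plasmin, had 396 to 468 CPM with a median of 442 in T3+T4 livers, against 492, 503, 525, 504 and 505 CPM in vehicle livers (-0.21 ± 0.05). Plg, the plasmin precursor, had 392 to 486 CPM with a median of 460 in T3+T4 livers, against 500, 538, 549, 525 and 517 CPM in vehicle livers (-0.24 ± 0.06). None of the 3 overlapped between groups in CPM, and with the covariate they were at -0.01, -0.04 and -0.04. Serping1, which inhibits both C1 proteases and kallikrein, had 242 to 327 CPM with a median of 292 in T3+T4 livers, against 322, 342, 355, 383 and 342 CPM in vehicle livers (-0.27 ± 0.07). Kng1, the kininogen that releases bradykinin, had 443 to 482 CPM with a median of 466 in T3+T4 livers, against 514, 559, 499, 651 and 548 CPM in vehicle livers (-0.26 ± 0.06). Reads of Kng1 and its close copy Kng2 could be split by the counting. Apoh had 180 to 227 CPM with a median of 210 in T3+T4 livers, against 243, 263, 266, 248 and 250 CPM in vehicle livers (-0.30 ± 0.07). With the covariate these 3 were at -0.13, -0.18 and -0.08, and none was called.

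The 4 complement genes gave the same picture. C3 had 685 to 895 CPM with a median of 826 in T3+T4 livers, against 922, 945, 954, 967 and 974 CPM in vehicle livers (-0.26 ± 0.07, edgeR adjusted p = 0.00738). Hc had 480 to 591 CPM with a median of 558 in T3+T4 livers, against 634, 611, 610, 715 and 642 CPM in vehicle livers (-0.23 ± 0.05). Cfi had 266 to 312 CPM with a median of 292 in T3+T4 livers, against 331, 345, 373, 363 and 354 CPM in vehicle livers (-0.27 ± 0.06). No T3+T4 liver reached the vehicle range in any of the 3. Masp2 had 123 to 145 CPM with a median of 136 in T3+T4 livers, against 155, 153, 148, 157 and 150 CPM in vehicle livers (-0.18 ± 0.06), again without overlap. With the covariate C3 was at -0.06, Hc at -0.17, Cfi at -0.12 and Masp2 at -0.09. In animals 54 to 85 alone, Cfi (-0.32) was the 1 member called.

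**Figure D3:**
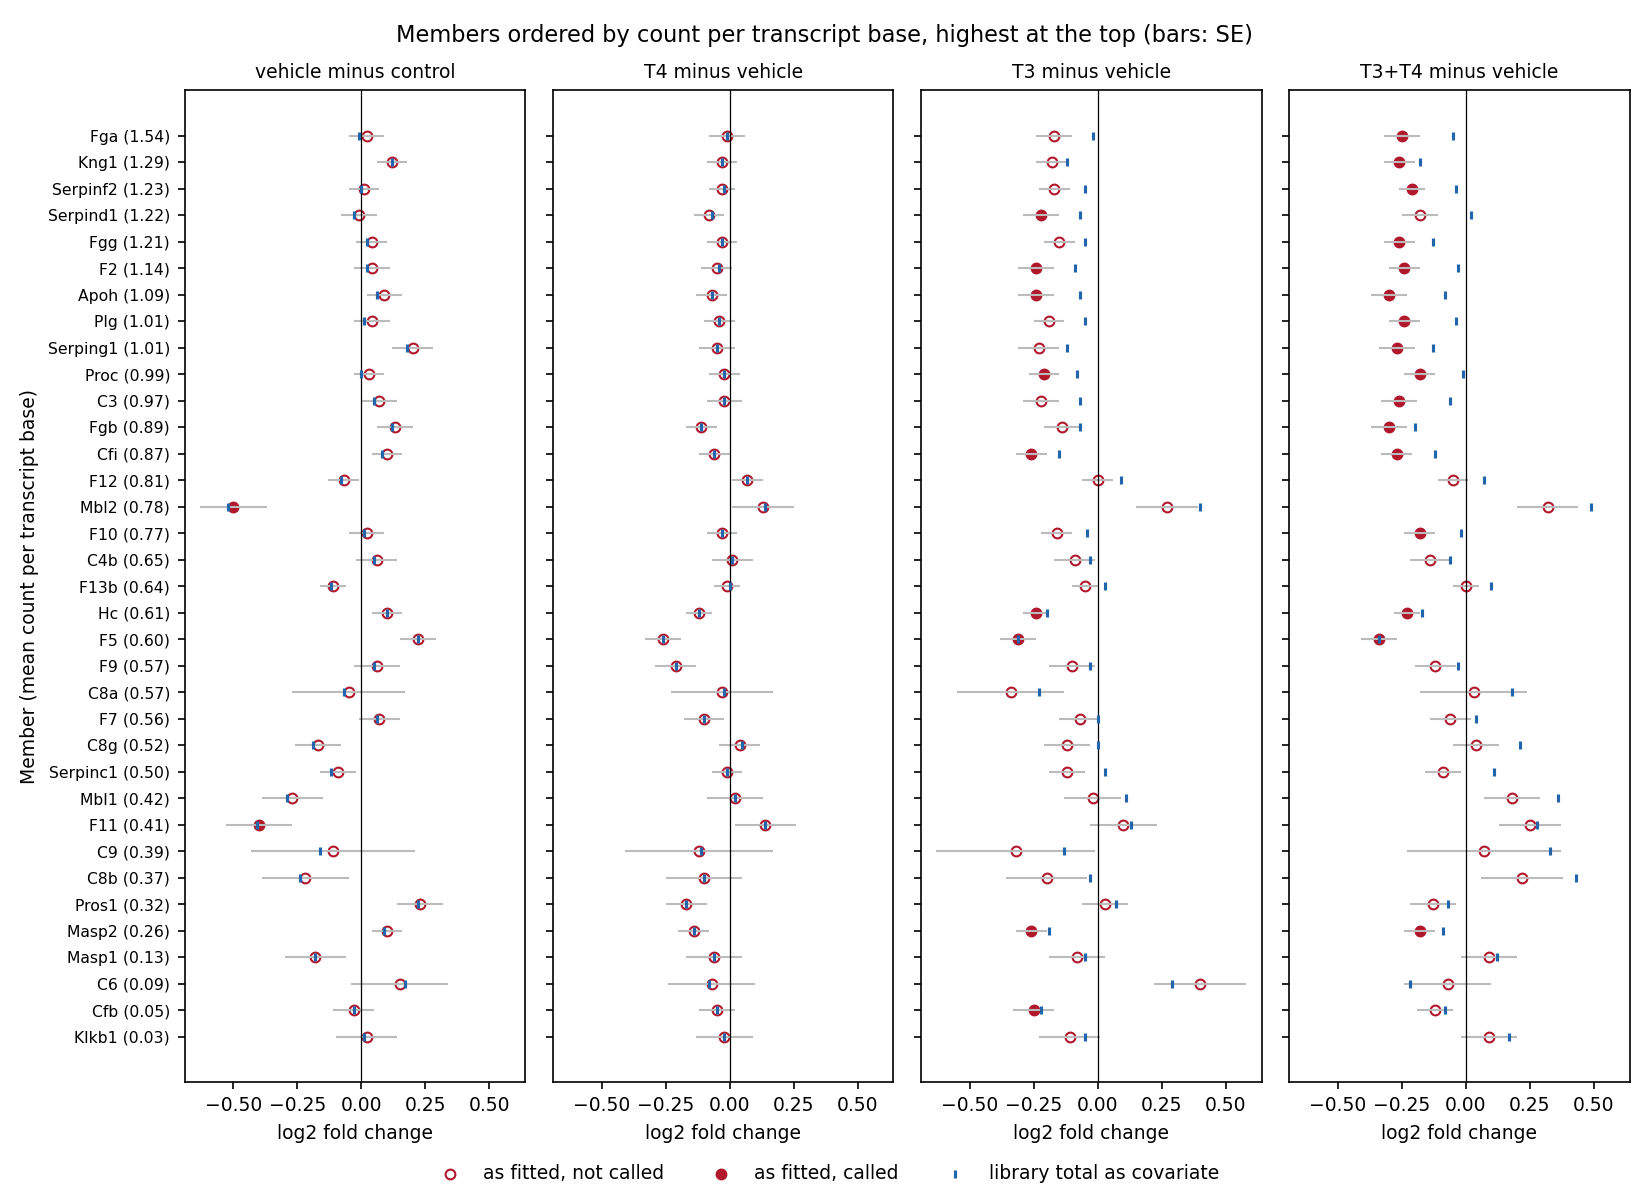
Log2 fold change of each member (x axis) in 4 comparisons, with members ordered by mean count per transcript base, highest at the top. Circles give the fit without covariate (filled where called, bars SE) and blue ticks the fit with log2 library total as a covariate; after T3+T4 the tick of Fga lies at -0.05 and that of Kng1 at -0.18, while F5 is at -0.34, and at -0.31 after T3.

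Members that were not called included Serpinc1, or antithrombin, with 362 to 456 CPM with a median of 434 in T3+T4 livers, 374 to 464 CPM with a median of 404 in T3 livers and 455, 463, 457, 409 and 449 CPM in vehicle livers. Its log2 fold change was -0.09 ± 0.07 after T3+T4 and -0.12 ± 0.07 after T3, and 0.11 and 0.03 with the covariate. F7, whose product starts clotting with tissue factor, was at -0.06 ± 0.08 after T3+T4, and F9 was at -0.12 ± 0.08. F12 and F13b, the contact factor XII and the carrier subunit of factor XIII, had -0.05 ± 0.06 and 0.00 ± 0.05. Klkb1, the kallikrein precursor, was at 0.09 ± 0.11 and Pros1 at -0.13 ± 0.09. Among complement genes, C4b, which may share reads with C4a, was at -0.14 ± 0.08, Mbl1 at 0.18 ± 0.11, Masp1 at 0.09 ± 0.11 and C8g at 0.04 ± 0.09. After T3 the 15 members called nowhere ran from -0.34 (C8a) to 0.40 (C6), and after T4 from -0.21 (F9) to 0.07 (F12). Of 35 members, 20 were called in at least 1 of the 8 comparisons and 15 in none.

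The share of calls in T3+T4 against vehicle followed the count per base across the whole table. As fitted, 5.23% of the 10340 genes under 0.1 counts per base were lower, 6.42% between 0.1 and 0.2, 13.3% between 0.2 and 0.5, 32.9% between 0.5 and 1 and 60.1% of the 153 genes above 1. Of the 9 members above 1, 8 were lower, and of the 15 members between 0.5 and 1, 7 were. The shares with library total as a covariate were 6.03%, 4.93%, 4.49%, 5.96% and 7.19% in the same order. In T3 against vehicle the shares as fitted were 2.06%, 2.64%, 5.51%, 11.3% and 16.3%. In T4 against vehicle, 0 of the 153 genes above 1 count per base were called.

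**Figure D4:**
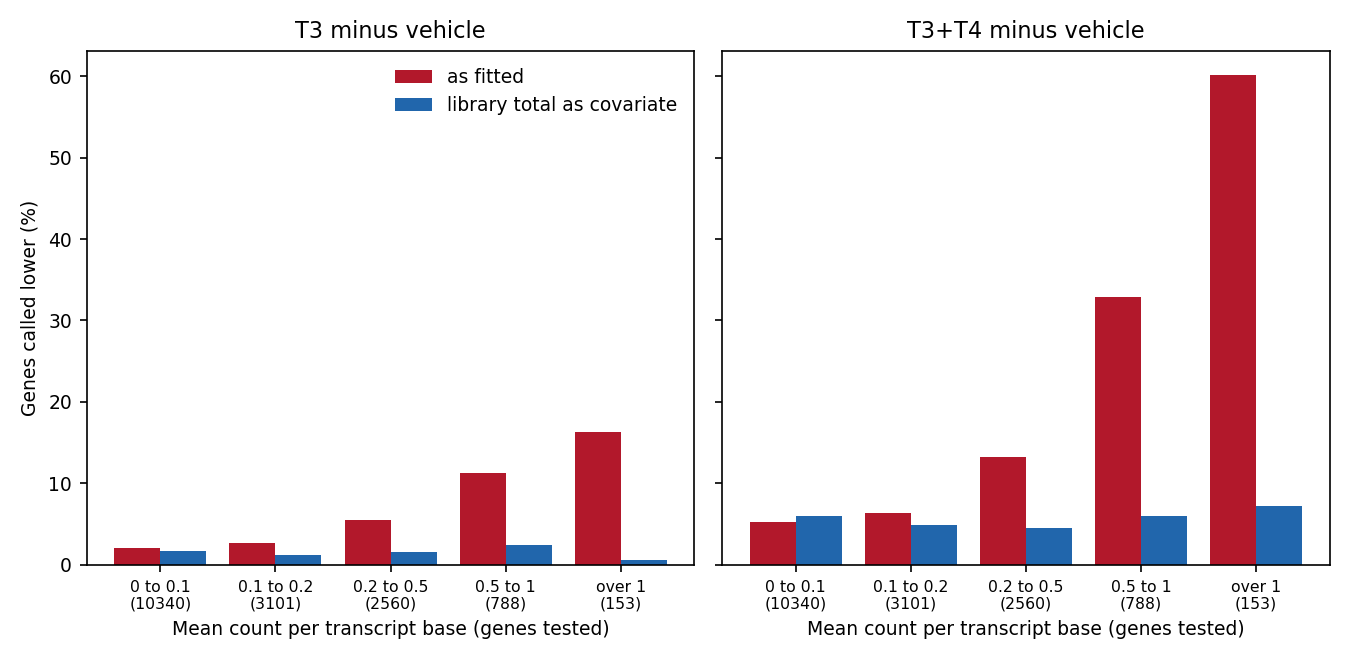
Percent of tested genes called lower (y axis) in T3 and T3+T4 against vehicle livers, by mean count per transcript base (x axis, number of genes in brackets), as fitted (red) and with log2 library total as a covariate (blue). As fitted the share reaches 16.3% and 60.1% above 1 count per base, and with the covariate 0.654% and 7.19%.

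Against control livers, no member was called after T4, T3 or T3+T4, beside 3.54% of all genes after T4 (1.83% higher and 1.71% lower), 0.211% after T3 (0.17% higher and 0.041% lower) and 0% after T3+T4, with an unadjusted p under 0.05 in 7, 22 and 18 members. DESeq2 called Mbl2 lower after T4 (-0.37), no member after T3, and Fga, Fgg, Serpinf2, Plg and Apoh lower after T3+T4, where it gave 13 members no adjusted p. After T4, Mbl2 was at -0.37 ± 0.11 against control in edgeR (adjusted p = 0.0654), and at -0.39 and called with the covariate. F5 was at -0.04 ± 0.07 after T4, -0.09 ± 0.07 after T3 and -0.12 ± 0.07 after T3+T4 against control. Between T4 and T3 livers no member was called, beside 0.551% of all genes (0.158% higher and 0.393% lower), with an unadjusted p under 0.05 in 19 members and 2 calls by DESeq2 (Proc 0.18 and Cfi 0.19, higher in T4). For F5 the difference T4 minus T3 was 0.05 ± 0.06 (95% interval -0.07 to 0.17), and for Mbl2 -0.14 ± 0.11 (-0.36 to 0.07). The covariate fit called no member in T4 against T3, in T3 against control or in T3+T4 against control. Without T3 pup 62, 5 members were called in T4 against T3 and 4 in T3 against control.

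The ranges of T4 and control livers overlapped for all 35 members, while 1.8% of all genes tested had no overlap. F2 had 379 to 480 CPM with a median of 419 in T4 livers and 430, 376, 435, 439 and 428 CPM in control livers. F10 had 309 to 391 CPM with a median of 359 in T4 livers, 299 to 360 CPM with a median of 318 in T3 livers and 364, 317, 366, 370 and 359 CPM in control livers. F10 in T3 livers overlapped the control range. Fga had 652 to 809 CPM with a median of 757 in T4 livers, 613 to 781 CPM with a median of 643 in T3 livers and 791, 653, 768, 765 and 727 CPM in control livers. Fgb had 533 to 655 CPM with a median of 613 in T4 livers, 500 to 677 CPM with a median of 598 in T3 livers and 652, 569, 608, 588 and 583 CPM in control livers. Fgg had 350 to 419 CPM with a median of 405 in T4 livers, 322 to 392 CPM with a median of 361 in T3 livers and 427, 349, 398, 388 and 381 CPM in control livers. For the 3 fibrinogen chains the T3 livers overlapped the control livers in each case.

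Proc had 256 to 326 CPM with a median of 289 in T4 livers and 292, 270, 286, 292 and 288 CPM in control livers. Serpinc1 had 390 to 512 CPM with a median of 435 in T4 livers and 497, 437, 497, 485 and 465 CPM in control livers. Serpind1 had 418 to 536 CPM with a median of 487 in T4 livers, 383 to 492 CPM with a median of 442 in T3+T4 livers and 502, 468, 526, 533 and 502 CPM in control livers. None of these 3 separated T4 from control livers. Serpinf2 had 439 to 554 CPM with a median of 508 in T4 livers, 418 to 502 CPM with a median of 437 in T3 livers and 504, 467, 506, 519 and 509 CPM in control livers. Serping1 had 299 to 373 CPM with a median of 336 in T4 livers, 271 to 337 CPM with a median of 288 in T3 livers and 344, 260, 305, 290 and 316 CPM in control livers. Plg had 447 to 570 CPM with a median of 522 in T4 livers, 424 to 523 CPM with a median of 461 in T3 livers and 524, 470, 526, 526 and 520 CPM in control livers. Control pup 47 was the lowest control liver for Plg, as for most members. Kng1 had 463 to 582 CPM with a median of 556 in T4 livers, 456 to 538 CPM with a median of 488 in T3 livers and 536, 484, 498, 515 and 510 CPM in control livers. Apoh had 209 to 284 CPM with a median of 242 in T4 livers and 242, 215, 247, 248 and 243 CPM in control livers. Kng1 was lower in every T3+T4 than in every control liver, and was not called (-0.14 ± 0.06). Of all genes tested, 0.727% had no overlap between these groups.

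C3 had 820 to 1050 CPM with a median of 945 in T4 livers, 752 to 957 CPM with a median of 784 in T3 livers and 952, 830, 930, 932 and 899 CPM in control livers. Hc had 567 to 633 CPM with a median of 575 in T4 livers and 597, 582, 606, 602 and 603 CPM in control livers. Cfi had 304 to 365 CPM with a median of 348 in T4 livers and 328, 314, 324, 346 and 336 CPM in control livers. Hc in T3 livers lay below every control liver and Cfi in T3+T4 livers did so too, and neither was called (-0.14 ± 0.05 and -0.17 ± 0.06). Masp2 had 125 to 151 CPM with a median of 139 in T4 livers and 157, 129, 148, 137 and 141 CPM in control livers. Cfb had 22.5 to 27.6 CPM with a median of 25.6 in T4 livers, 21.8 to 28.1 CPM with a median of 23.6 in T3+T4 livers and 29.3, 25.5, 28.4, 25.8 and 25.2 CPM in control livers. Cfb was lower in every T3 than in every control liver (-0.28 ± 0.08, edgeR adjusted p = 0.0818). F13b was also lower and C6 higher in every T3 than in every control liver, and neither was called. Of all genes tested, 2.23% had no overlap between T3 and control livers, and 0.727% between T3+T4 and control livers.

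Among the 35 members, C9, C6, C8a and C8b, all of the membrane pore, varied most between animals. The SD within groups was 34.4% of the mean for C9, which forms the ring of the pore, 21.6% for C6, 20.4% for C8a and 19% for C8b, against 5.35% for F13b and 5.68% for Hc. The highest library exceeded the lowest 5.5-fold for both C8a and C9. None of the 4 was called in any comparison.

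C8a had 284 to 511 CPM with a median of 357 in T4 livers, 92.8 to 415 CPM with a median of 331 in T3 livers and 284 to 457 CPM with a median of 381 in T3+T4 livers. Vehicle livers had 373, 314, 442, 380 and 373 CPM and control livers 434, 333, 404, 387 and 392 CPM. The highest was T4 pup 40 and the lowest T3 pup 61, and the next lowest T3 liver, pup 68, had 216 CPM. C9 had 66.7 to 214 CPM with a median of 120 in T4 livers, 41.5 to 180 CPM with a median of 121 in T3 livers, 91.2 to 198 CPM with a median of 161 in T3+T4 livers, 158, 89.1, 228, 88.9 and 162 CPM in vehicle livers and 226, 119, 130, 142 and 169 CPM in control livers. Here too pup 61 was the lowest of the T3 and pup 40 the highest of the T4 livers, and within the vehicle group C9 had 228 CPM in pup 55 and 88.9 CPM in pup 67.

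The extremes of several genes came from the same pups. T3 pup 61 was the lowest T3 liver for 14 members, among them C8a (92.8 CPM), C8b (81.7), C8g (78.2), C9 (41.5), Mbl1 (75.7), Masp1 (83.7) and F11 (105). It was the highest T3 liver for C6 (84.5 CPM) and Pros1 (271 CPM), which encodes protein S, the cofactor of protein C. T4 pup 40 was the highest T4 liver for 9 members, among them C8a (511 CPM), C8b (202), C8g (122), C9 (214) and Mbl1 (141). Their library totals, 6101175 and 5030727 counts, were inside the range of their groups. The deposited counts of C8a (559) and C9 (250) in pup 61 were the lowest of the T3 group as well.

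**Figure D5:**
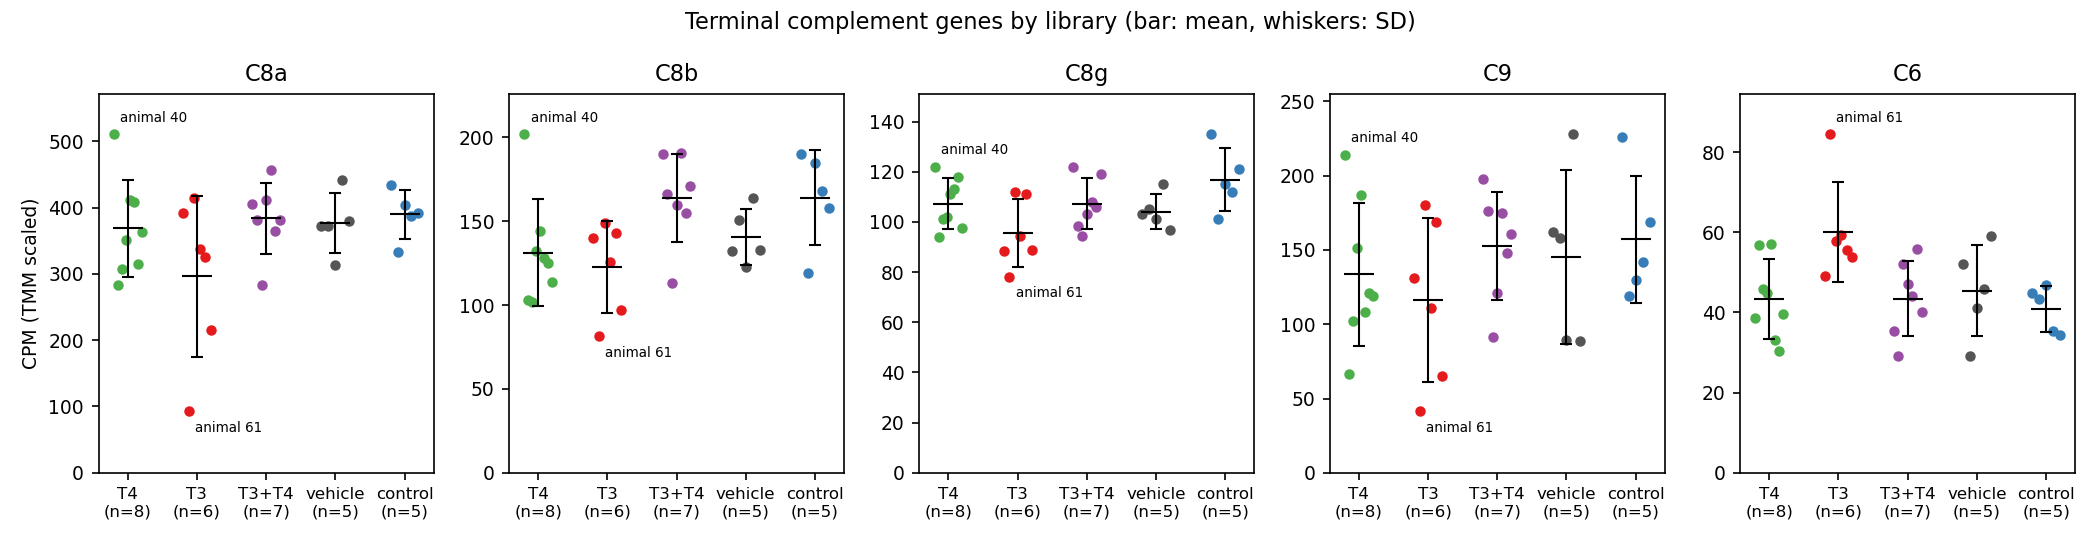
CPM after TMM scaling of C8a, C8b, C8g, C9 and C6 in every library, by group, with the mean (bar) and SD (whiskers). T3 animal 61 is the lowest T3 library for the first 4 genes and the highest for C6 (84.5 CPM), and T4 animal 40 is the highest T4 library for the first 4.

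Other genes of the same pathways came from lists made from textbook knowledge, and are named by smallest adjusted p. In vehicle against control livers, 2 of 20 further coagulation and fibrinolysis genes were higher and none lower: Plat, the tissue plasminogen activator, at 4.1 ± 0.894 CPM in vehicle and 1.94 ± 0.938 CPM in control livers (1.07 ± 0.31), and Kng2 (0.23 ± 0.06). Of 26 further complement genes, 1 was lower: Fcna, ficolin A, which like Mbl2 starts the lectin pathway and is made by macrophages in mouse liver. Fcna had 54.7 ± 10.3 CPM in vehicle and 72.6 ± 6.17 CPM in control livers (-0.41 ± 0.11, edgeR adjusted p = 0.0137). It was higher after T3 at 73.8 ± 10.1 CPM (0.43 ± 0.10) and after T3+T4 at 69.5 ± 5.6 CPM (0.35 ± 0.10), and at 69 ± 5.75 CPM after T4 it was not called (0.34 ± 0.10). With library total as a covariate the T3 call stood and the T3+T4 call did not. In the Kupffer cell list, which holds other macrophage genes, 1 of 9 (Clec4f) was lower in vehicle than in control livers, with the covariate as well. From the same list, 1 of 9 (Timd4) was higher after T3 and after T3+T4, in neither case with the covariate. The part of these macrophage genes in the Fcna values was not tested.

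After T3, 6 of the 26 complement genes were lower than in vehicle livers, among them the classical pathway proteases C1s2 (-0.43 ± 0.09), C1rb (-0.30 ± 0.07) and C1s1 (-0.31 ± 0.07), and with the covariate C1s2 was called. After T3+T4, Clu (-0.25 ± 0.08) and C1s2 (-0.24 ± 0.08) were lower, and neither was called with the covariate. C1ra and C1rb, and C1s1 and C1s2, are near copies whose reads the counting could split. Of the 20 coagulation genes, Hrg (-0.27 ± 0.07), Vtn (-0.25 ± 0.07) and Kng2 (-0.20 ± 0.06) were lower after T3, and none was called with the covariate. The genes lower after T3+T4 included Kng2 (-0.34 ± 0.06), Hrg (-0.39 ± 0.07), Vtn (-0.27 ± 0.06) and, named beyond that rule after its value was seen, Proz (-0.17 ± 0.06). With the covariate, Hrg, Plat and Kng2 were lower. None of these lists had a call after T4 against vehicle apart from Nr5a2 among transcription factors.

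Of 20 liver transcription factors, Nr5a2 (LRH-1) and Thra, the thyroid hormone receptor alpha gene, were higher in vehicle than in control livers. Nr5a2 had 244 ± 30.5 CPM in vehicle and 165 ± 13.8 CPM in control livers (0.57 ± 0.11), and was lower after T4 (-0.56 ± 0.09), T3 (-0.45 ± 0.10) and T3+T4 (-0.52 ± 0.10). Thra was lower after T3 (-0.37 ± 0.07) and T3+T4 (-0.34 ± 0.07), and Cebpb was higher after T3 (0.62 ± 0.18). With the covariate the Nr5a2 and Thra calls stood and the Cebpb call did not. Of 9 genes of the vitamin K cycle and factor secretion, Aifm2, a vitamin K reductase, was higher in vehicle livers (0.59 ± 0.10) and lower after T3 (-0.30 ± 0.09) and T3+T4 (-0.44 ± 0.09). With the covariate, the Aifm2 calls in vehicle against control and after T3+T4 stood and the T3 call did not. Mcfd2, part of the receptor that carries factors V and VIII out of the endoplasmic reticulum, was lower after T3 (-0.19 ± 0.05) and T3+T4 (-0.20 ± 0.05), at 0.85 counts per base, and was not called with the covariate. Of 23 acute phase genes, Cp (-0.23 ± 0.05) and Itih3 (-0.20 ± 0.05) were lower after T3, and neither with the covariate. After T3+T4, 9 were lower and 1 (Saa2, 2.75 ± 0.92) higher, led by Itih3 (-0.33 ± 0.05), Cp (-0.30 ± 0.05), Serpina3n (-0.26 ± 0.05) and Hp (-0.30 ± 0.07), and with the covariate Cp, Stat3 and Itih3 were lower and Saa1 and Saa2 higher. None of the 5 lists had a call in T4 against T3, in T3 against control or in T3+T4 against control, and Cr1l was lower in T4 than in control livers (-0.19 ± 0.05).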

How the data were processed

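Total liver RNA (TRIzol) was made into stranded, poly(A)-selected libraries, per the labels' protocols. The submitters' processing notes name bcl2fastq, Trimmomatic, BWA 0.7.10 and DESeq, and list the build GRCh38, while the column names of the deposited table name mm10. The counting tool, its use of strand and its annotation are not given in the sources used here. The authors deposited 1 table of whole-number counts per gene, not normalized. Its lowest value is 1, at 50.1% of all values, and 97.5% of its identifiers are in GENCODE M21, from which positions and transcript lengths were taken.

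The members and gene lists were chosen with earlier results of these data known. Libraries were grouped by their source name. Counts were tested with edgeR 4.0.16 (R 4.3.3, limma 3.58.1): TMM factors, filterByExpr, a quasi-likelihood fit with 1 mean per group over all 31 libraries, 8 comparisons, Benjamini-Hochberg adjustment over 17057 genes, and a call at an adjusted p under 0.05. CPM values are TMM-scaled, errors are SD for levels and SE for log2 fold changes, and intervals are 95%. Totals of 4383769 to 7158919 counts set the precision, and the ceiling per base limits it further for abundant genes. Each result was recomputed in 15 other settings, among them DESeq2 1.42.0, library total or sex as a covariate and corrections for a ceiling of 2 per base, and without each of the 31 libraries. DESeq2 without the filter, the ceiling per transcript base and scaling by genes far from the ceiling were added after seeing the data.

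Values by library (range and median in groups over 5) are given for the 20 members called in at least 1 comparison and for the fibrinogen chains, C3, F2 and Serpinc1, and up to 4 called genes per comparison for each other list, by smallest adjusted p. Kng1 and Kng2, C4b and C4a, C1ra and C1rb, and C1s1 and C1s2 are near copies that the counting could split. 1 gene of the further lists is not reported here.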

Additional observations from a re-analysis of the deposited data

Results flagged for a closer look

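Of 175 sets of CPM values (35 members in 5 groups), 14 held a library far from the others of its group by Dixon's criterion, which chance alone meets in about 5% of sets. Control pup 47, the largest control library, was low for F2 (376 CPM, the others from 428), F10 (317, the others from 359), Proc (270, the others from 286), Plg (470, the others from 520) and Apoh (215, the others from 242). T3 pup 62, the smallest T3 library, was high for F2 (427 CPM, the others up to 369) and F7 (213, the others up to 180). T3 pup 61 was high for Pros1 (271 CPM, the others up to 200) and C6 (84.5, the others up to 59.4) and low for Masp1 (83.7, the others from 118). T4 pup 40 was high for C8b (202 CPM, the others up to 144). Vehicle pup 55 was high for F2 (471 CPM, the others up to 432), vehicle pup 37 low for Pros1 (184, the others from 198) and vehicle pup 67 low for Serpinc1 (409, the others from 449).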

How the results depend on the processing

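The counts of members called were 2 (vehicle against control), 0 (T4 against vehicle), 9 (T3 against vehicle) and 16 (T3+T4 against vehicle), and 0 in T4 against T3 and in each hormone group against control. Corrections for a ceiling of 2 per base gave 8 (lower) for T3 and 14 (1 higher, 13 lower) for T3+T4 against vehicle. By the slopes on depth, that ceiling is too weak for most members. With library total as a covariate they were 1 for T3 and 2 for T3+T4 against vehicle, and 1 for T4 against control. Without the filter on low counts they were 1 for vehicle against control, 3 for T3 and 7 for T3+T4 against vehicle (1 higher, 6 lower). DESeq2 called 1 for T4 against vehicle, 2 for T4 against T3, 1 for T4 and 5 for T3+T4 against control. DESeq2 without the filter, added after seeing the data, has size factors of 0.948 to 1 and called 4 for T3 against vehicle and 11 for T3+T4 (all higher), 4 for T4 against T3 (all lower), 2 for T3 and 2 for T3+T4 against control (all higher). That setting leaves library size almost unscaled and moved the median of the 17057 tested genes to 0.23 for T3 and 0.29 for T3+T4 against vehicle, -0.18 for T4 against T3, and 0.18 for T3 and 0.25 for T3+T4 against control. In it the log2 fold change was 0.02 for Proc and 0 for Serpind1 in T3 against vehicle, and in T3+T4 against vehicle for F2 (0.05), F10 (0.11), Fga (0.04), Fgg (0.02), Proc (0.11), Serpinf2 (0.07), Serping1 (0), Plg (0.04), Kng1 (0.02), C3 (0.02), Hc (0.05), Cfi (0.02) and Masp2 (0.1). With the 2 compared groups alone, T3 against vehicle had 2 calls. With sex as a covariate there was 1 for vehicle against control, 4 for T3 against vehicle and 1 for T4 against control. Animals 54 to 85 alone gave 0 for vehicle against control, 0 for T3 and 1 for T3+T4 against vehicle. Without libraries with acinar or muscle genes there was 1 for vehicle against control, 0 for T3 and 6 for T3+T4 against vehicle. Scaling by genes far from the ceiling, added after seeing the data, gave 5 for T3 against vehicle. The cause of these changes was not tested.

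Leaving out each library in turn gave 1 to 4 for vehicle against control, 0 to 0 for T4, 4 to 15 for T3 and 13 to 17 for T3+T4 against vehicle, 0 to 5 for T4 against T3, 0 to 1 for T4, 0 to 4 for T3 and 0 to 0 for T3+T4 against control. The 1 call in T4 against control came without control pup 47 or T4 pup 58. Apart from DESeq2 without the filter, none of the 15 settings put the median of the tested genes over 0.1 from 0. No paired analysis was possible, since each library is a different pup and the labels used here name no litter. Any litters shared between or within groups could not be accounted for. Counts did not grow in proportion to depth in many members, with a slope under 0.5 in 20 of the 35. Not all of these were abundant, as C8b (0.366 counts per base) and C9 (0.389) were among them, and both varied widely between animals.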
